A study of Mus musculus with 12 samples.

Results

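The amino acid response and the unfolded protein response were followed through 38 genes, out of 23120 genes with reads in the gene table of Tet1kd cells and 22949 in that of Tet2kd cells. The genes were chosen by name, and all 38 were found in both tables through their Ensembl IDs. They form 2 arms. The amino acid response arm holds 26 genes, namely 9 regulators and effectors, 9 enzymes, 7 transporters and 1 lipoprotein receptor, most of them known targets of the transcription factor ATF4. The endoplasmic reticulum (ER) arm holds 12 genes, of which 9 encode chaperones, folding enzymes and secreted folding factors, 2 act in ER-associated degradation and 1 is the regulator Xbp1.

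RNA was measured by poly(A)-selected SOLiD sequencing in V6.5 cells, a mouse embryonic stem cell line, in 3 groups of 4 libraries labelled as biological replicates. Tet1kd cells and Tet2kd cells carried the vector pSUPER-puro with a short hairpin RNA against Tet1 or Tet2, dioxygenases that oxidize 5-methylcytosine. They had been electroporated, selected with puromycin on mitomycin-inactivated feeder cells and picked as single clones, and the sources used here do not say how many clones stand behind the 4 libraries of a knockdown. The parental V6.5 cells are labelled as having no knockdown, and no group with a control hairpin or an empty vector was analysed here. So an effect of the knockdown cannot be told apart from one of vector, selection or clone. All groups were grown in serum medium with LIF, L-glutamine, nonessential amino acids and 2-mercaptoethanol, which bears on genes of amino acid supply. The comparisons ask how the response genes stood in each knockdown against the same 4 parental libraries.

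As background, scarce amino acids activate the kinase GCN2 and misfolded proteins in the ER activate the kinase PERK. Both phosphorylate the translation factor eIF2 alpha, which slows general translation while ATF4 is translated more, and ATF4 with its partners then switches on genes for amino acid synthesis, uptake and tRNA charging. The other branches of the unfolded protein response, ATF6 and IRE1 with XBP1, raise ER chaperones and degradation factors. ATF4 activity is thus set largely by translation, so the Atf4 transcript alone does not report it, and in bulk RNA fewer cells of a type and less RNA per cell cannot be told apart.

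The 2 arms are known for different promoter elements, and these were searched for in the RefSeq promoter windows (build GRCm38.p6, 250 bases before to 50 bases after the start of a gene) on both strands. The core of the amino acid response element was searched as TGATGNAAN, the ER stress element as a CCAAT box followed after 9 free bases by CCACG, and the unfolded protein response element as TGACGTGG. No gene held more than one kind of these motifs, so they did not overlap each other. The table held promoters for 22 genes of the amino acid response arm and 11 of the ER arm. The amino acid response core stood in 9 of the 22 (9 of their 28 promoters), in 1 of the 11 (Herpud1) and in 3.95% of all 32851 promoters. The ER stress element stood in 5 of the 11, in 0 of the 22 and in 0.119% of all promoters. TGACGTGG, present in 0.676% of all promoters, stood in none of the 33 genes. A match is a description of these letters and not a measured binding site. The genes were chosen as known genes of these responses, so their shares above those of all promoters are no test of the elements.

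The promoters below are printed 5′ to 3′ along the transcript, with the matched element in capitals, because they show the matches counted above. The first 4 hold the amino acid response core, in Chac1 (chr2:119350992-119351291, plus strand), Nupr1 (chr7:126625421-126625720, minus strand), Asns (chr6:7693160-7693459, minus strand) and the ER gene Herpud1 (chr8:94386179-94386478, plus strand). The other two hold the ER stress element, in Hspa5 (chr2:34771840-34772139, plus strand) and Creld2 (chr15:88819396-88819695, plus strand).
Chac1: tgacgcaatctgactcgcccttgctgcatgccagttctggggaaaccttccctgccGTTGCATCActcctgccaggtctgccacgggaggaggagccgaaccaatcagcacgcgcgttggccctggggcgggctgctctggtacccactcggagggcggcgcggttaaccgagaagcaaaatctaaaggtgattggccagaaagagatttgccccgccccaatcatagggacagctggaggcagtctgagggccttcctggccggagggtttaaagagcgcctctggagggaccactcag
Nupr1: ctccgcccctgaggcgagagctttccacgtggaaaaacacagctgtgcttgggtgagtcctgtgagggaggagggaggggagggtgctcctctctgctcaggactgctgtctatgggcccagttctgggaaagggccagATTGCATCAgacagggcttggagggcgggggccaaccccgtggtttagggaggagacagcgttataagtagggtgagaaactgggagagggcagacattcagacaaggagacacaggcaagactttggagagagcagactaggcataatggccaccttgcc
Asns: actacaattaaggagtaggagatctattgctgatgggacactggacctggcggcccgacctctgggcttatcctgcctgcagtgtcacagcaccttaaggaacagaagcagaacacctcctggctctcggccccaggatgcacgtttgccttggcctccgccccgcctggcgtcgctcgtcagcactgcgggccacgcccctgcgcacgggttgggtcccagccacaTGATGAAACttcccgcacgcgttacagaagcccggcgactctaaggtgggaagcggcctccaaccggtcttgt
Herpud1: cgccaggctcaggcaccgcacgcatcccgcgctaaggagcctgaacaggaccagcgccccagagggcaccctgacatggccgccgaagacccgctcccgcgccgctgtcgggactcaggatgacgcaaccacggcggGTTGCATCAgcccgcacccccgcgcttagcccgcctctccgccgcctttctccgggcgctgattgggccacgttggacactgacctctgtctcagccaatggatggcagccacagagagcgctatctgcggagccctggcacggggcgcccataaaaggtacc
Hspa5: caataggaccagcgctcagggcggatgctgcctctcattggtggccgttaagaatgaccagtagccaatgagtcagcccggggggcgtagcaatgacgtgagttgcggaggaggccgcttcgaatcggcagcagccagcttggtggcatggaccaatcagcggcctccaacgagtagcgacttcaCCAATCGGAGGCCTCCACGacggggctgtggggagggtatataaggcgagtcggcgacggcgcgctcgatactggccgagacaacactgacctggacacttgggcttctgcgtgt
Creld2: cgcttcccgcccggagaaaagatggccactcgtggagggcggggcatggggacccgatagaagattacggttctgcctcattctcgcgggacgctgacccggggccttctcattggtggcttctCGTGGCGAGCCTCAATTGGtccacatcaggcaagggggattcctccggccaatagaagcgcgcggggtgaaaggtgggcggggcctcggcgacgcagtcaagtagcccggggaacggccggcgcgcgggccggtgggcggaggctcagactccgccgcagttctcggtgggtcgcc

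Chac1 and Herpud1 shared the same 9 letters, GTTGCATCA, which read TGATGCAAC on the other strand, and Slc1a4 and Vldlr held them too. Asns held TGATGAAAC on the coding strand, at -23 to -15 from the start, and Nupr1 held its match at -111 to -103. The remaining matches to this core were in Atf3, Trib3, Pck2 and, at 2 places, Slc7a11. Besides Hspa5 and Creld2 the ER stress element was found in Calr, in Dnajc3 and, at 2 places, in Hsp90b1.

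In Tet1kd cells most genes of the amino acid response arm were higher, led by Chac1, Slc6a9, Nupr1 and Pck2, while 5 of the 9 ER chaperone and folding genes, Hspa5 among them, were lower. Of the 26 amino acid response genes 18 rose, 2 fell and 6 did neither per the authors' deposited table (adjusted p under 0.05 in the first of its 2 tests). The background was 15.2% of the 23120 genes tested higher and 15.3% lower, and among the 10996 genes with a mean of at least 100 normalized reads it was 25.5% higher and 24.2% lower. The same shares are the background for the Tet1kd counts by role and by promoter match below. The median log2 fold change of the arm was 0.48 per the authors' deposited table, against -0.03 over all genes tested. Of the 12 ER genes 1 rose, 5 fell and 6 did neither, with a median of -0.13 per the authors' deposited table. The effects ranged per the authors' deposited table from 2.22 for Chac1 to -1.82 for Slc7a11. The members were chosen with such results known, so these counts are a description.

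**Figure D1:**
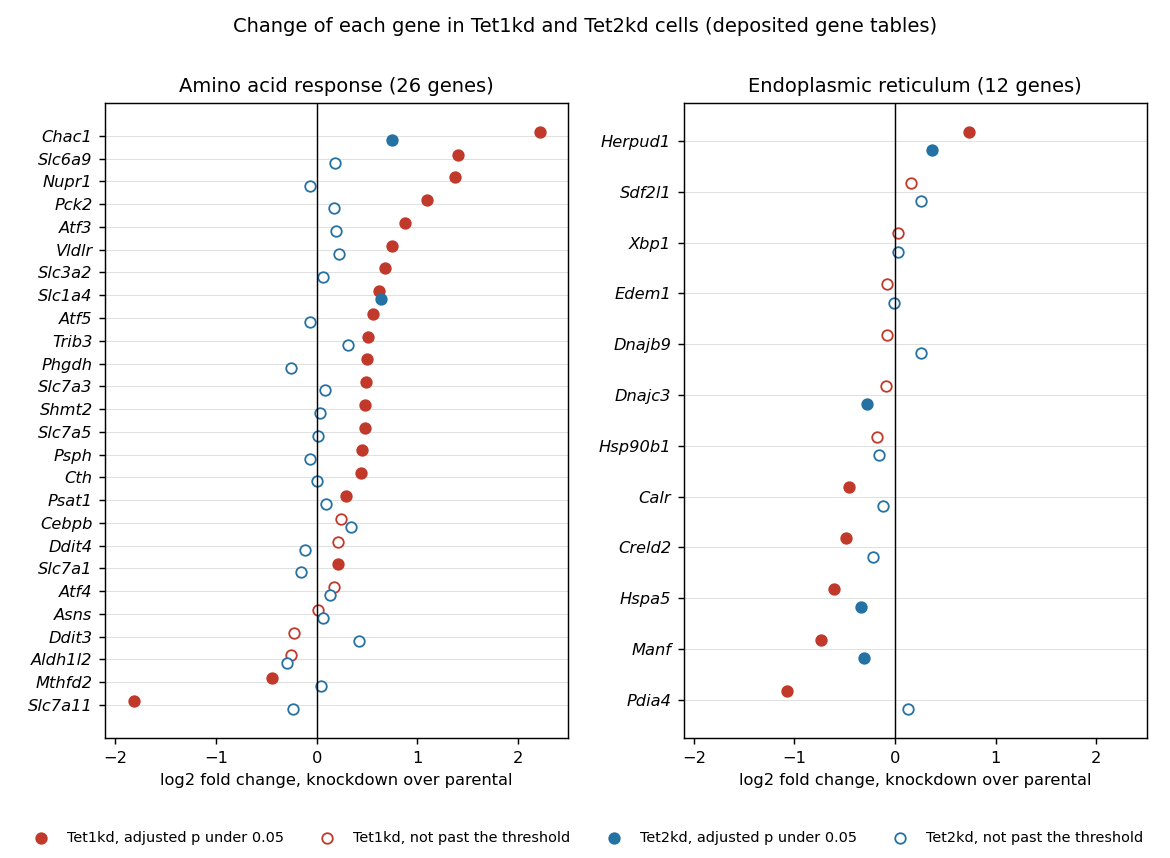
Log2 fold change of each knockdown over parental cells for the 26 amino acid response genes and the 12 ER genes, as deposited, with Tet1kd in red, Tet2kd in blue and filled points past an adjusted p of 0.05. Tet1kd points of the amino acid response arm lie mostly right of 0, with 18 of 26 past the threshold there, while 5 of 12 ER genes pass to the left of 0; in Tet2kd cells 6 of the 38 genes pass.

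Among the 9 regulators and effectors 5 rose, 0 fell (0 lower also at an unadjusted p under 0.05 in either test) and 4 did neither per the authors' deposited table. Chac1, which encodes an enzyme that degrades glutathione, was at 1430.1, 1477, 1400.1 and 1388 normalized reads in the Tet1kd libraries a to d and at 293, 311, 299 and 317 in the parental libraries. Normalized reads are reads of a gene divided by the size factor of the library, recovered here per library from the deposited means, and the libraries are lettered by size factor since nothing ties them to the numbered samples. All 4 Tet1kd libraries lay far above the parental ones, and the groups did not overlap. Chac1 averaged 1424 ± 39.9 normalized reads in Tet1kd cells and 305 ± 10.9 in parental cells (SD, n = 4 each), a log2 fold change of 2.22 (adjusted p = 4.01e-95) per the authors' deposited table. Nupr1, a small stress-induced nuclear protein gene, was at 888, 909.9, 895 and 832 normalized reads in the Tet1kd libraries a to d and at 397, 281, 303 and 377 in the parental libraries. Every Tet1kd library was above every parental one, and the log2 fold change was 1.38 per the authors' deposited table (adjusted p = 5.73e-34).

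The related transcription factors Atf3 and Atf5 also rose. Atf3 was at 985, 881, 981 and 882 normalized reads in the Tet1kd libraries a to d and at 477, 576, 521 and 451 in the parental libraries. Libraries a and c were the higher pair among the Tet1kd libraries, and no library of the 2 groups overlapped. Atf5 was at 553, 601, 642 and 684 normalized reads in the Tet1kd libraries a to d and at 394, 427, 442 and 418 in the parental libraries. The groups were again apart, with log2 fold changes of 0.88 for Atf3 (adjusted p = 2.28e-15) and 0.56 for Atf5 (adjusted p = 1.53e-05) per the authors' deposited table. Trib3, a pseudokinase that restrains ATF4, was at 764, 748, 931 and 883 normalized reads in the Tet1kd libraries a to d and at 514, 545, 650.2 and 622 in the parental libraries. In both groups the shallower libraries c and d were the higher pair, yet the lowest Tet1kd library stood above the highest parental one. The log2 fold change of Trib3 was 0.51 per the authors' deposited table (adjusted p = 8.47e-05).

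Atf4, the central regulator, did not pass the first test. It averaged 10233 normalized reads in Tet1kd cells, where the values per library could not be recovered, and 9069 ± 123 in parental cells (SD, n = 4), with parental libraries a to d at 8925, 9016, 9201 and 9132. Its Tet1kd mean was above the highest parental library, and its log2 fold change of 0.17 did not pass the first test per the authors' deposited table (adjusted p = 0.0807) but passed the second (adjusted p = 2.35e-06). Ddit3, which encodes the CHOP transcription factor, was at 116, 82.4, 136 and 121 normalized reads in the Tet1kd libraries a to d and at 126, 103, 163 and 140.5 in the parental libraries. These groups overlapped, and the log2 fold change of -0.22 did not pass per the authors' deposited table (adjusted p = 0.614). Ddit4, an inhibitor of mTORC1, and Cebpb, a transcription factor, had log2 fold changes of 0.22 (adjusted p = 0.166) and 0.25 (adjusted p = 0.585) per the authors' deposited table, and their libraries overlapped with the parental ones. Ddit4 passed the second test (adjusted p = 0.00611 per the authors' deposited table) and limma (adjusted p = 0.0464).

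Among the 9 enzymes 6 rose, 1 fell and 2 did neither in Tet1kd cells per the authors' deposited table. The whole pathway of serine synthesis rose: Phgdh, its first enzyme, by 0.50 (adjusted p = 1.18e-04), Psat1, the second, by 0.30 (adjusted p = 0.00128) and Psph, the last, by 0.45 (adjusted p = 4.55e-06) on the log2 scale per the authors' deposited table. Phgdh was at 425, 426, 423 and 475 normalized reads in the Tet1kd libraries a to d and at 264, 310.1, 323 and 338 in the parental libraries. Libraries a to c of the Tet1kd group were close together, library d was higher, and all 4 were above the parental range. The largest change of an enzyme was that of Pck2, which makes phosphoenolpyruvate in mitochondria. Pck2 was at 2545, 2689, 2759.6 and 3074 normalized reads in the Tet1kd libraries a to d and at 1226, 1198, 1412 and 1346 in the parental libraries. The groups were far apart, with a log2 fold change of 1.09 per the authors' deposited table (adjusted p = 5.54e-30). Cth, which makes cysteine from cystathionine, rose by 0.44 (adjusted p = 5.97e-06) and Shmt2, which moves a carbon from serine to folate in mitochondria, by 0.48 (adjusted p = 1.57e-07) on the log2 scale per the authors' deposited table. In normalized reads Cth lay at 3333 to 3604 in Tet1kd and 2503 to 2596 in parental libraries, Shmt2 at 4648 to 5348 and 3381 to 3883, and Psph at 2121 to 2385 and 1494 to 1762. The groups of each of these genes were apart.

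The next enzyme of the mitochondrial folate path went the other way. Mthfd2 was at 2298, 2353, 2409.9 and 2452 normalized reads in the Tet1kd libraries a to d and at 3286, 3122, 3204 and 3304 in the parental libraries. All 4 Tet1kd libraries lay below all parental ones, with a log2 fold change of -0.44 per the authors' deposited table (adjusted p = 2.21e-06). Asns, asparagine synthetase and a textbook ATF4 target with the response core in its promoter above, averaged 26702 normalized reads in Tet1kd cells and 26382 ± 858 in parental cells (SD over 4 parental libraries; the Tet1kd libraries were not recovered). Its parental libraries a to d were at 27629, 26264, 25828 and 25807, so the Tet1kd mean lay inside the parental range. The log2 fold change of 0.02 did not pass per the authors' deposited table (adjusted p = 1). Aldh1l2, a further mitochondrial folate enzyme, had a log2 fold change of -0.25 (adjusted p = 0.387) per the authors' deposited table.

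All 7 transporters passed the first test in Tet1kd cells, 6 of them higher and 1 lower, per the authors' deposited table. Slc6a9, a glycine transporter, was at 318, 346, 279 and 366 normalized reads in the Tet1kd libraries a to d and at 102, 106, 135 and 151 in the parental libraries. The lowest Tet1kd library, c, was still well above the highest parental one, and the log2 fold change was 1.41 per the authors' deposited table (adjusted p = 1.79e-20). Slc1a4, a carrier of neutral amino acids such as alanine and serine, was at 1002, 994, 931 and 872 normalized reads in the Tet1kd libraries a to d and at 689, 580.3, 538 and 656 in the parental libraries. The groups did not overlap and the log2 fold change was 0.63 per the authors' deposited table (adjusted p = 9.21e-09). Slc3a2 and Slc7a5 encode the heavy and the light chain of one exchanger of large neutral amino acids. Slc3a2 averaged 11581 normalized reads in Tet1kd cells, and its parental libraries a to d were at 7158, 7279.8, 7329 and 7212. Slc3a2 rose by 0.68 (adjusted p = 1.06e-14) and Slc7a5 by 0.48 (adjusted p = 8.98e-08) on the log2 scale per the authors' deposited table. The carriers of arginine and lysine also rose, Slc7a3 by 0.49 (adjusted p = 6.35e-08) and Slc7a1 by 0.22 (adjusted p = 0.0314) on the log2 scale per the authors' deposited table. Slc7a3 lay at 6738 to 8093 normalized reads in the Tet1kd libraries and at 5038 to 5649.9 in the parental ones, and Slc7a1 at 6094 to 6467 and 5291 to 5494, with no overlap in either gene.

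The exception was Slc7a11, the cystine and glutamate exchanger, a gene with few reads here. Slc7a11 was at 9.93, 7.93, 7.6 and 4.14 normalized reads in the Tet1kd libraries a to d and at 16, 39.2, 36.8 and 12.4 in the parental libraries. The highest Tet1kd library lay below the lowest parental one, and the parental libraries split into a higher pair, b and c, and a lower pair, a and d. Its 4 Tet1kd libraries held 3 to 18 reads each and its parental libraries 8 to 50, so the log2 fold change of -1.82 (adjusted p = 0.0368 per the authors' deposited table) is imprecise. Vldlr, a receptor of the lipoprotein receptor family, was at 291, 240.2, 279 and 196 normalized reads in the Tet1kd libraries a to d and at 172, 135, 116 and 176 in the parental libraries. The lowest Tet1kd library, d, stood above the highest parental one, with a log2 fold change of 0.75 per the authors' deposited table (adjusted p = 4.78e-04).

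**Figure D2:**
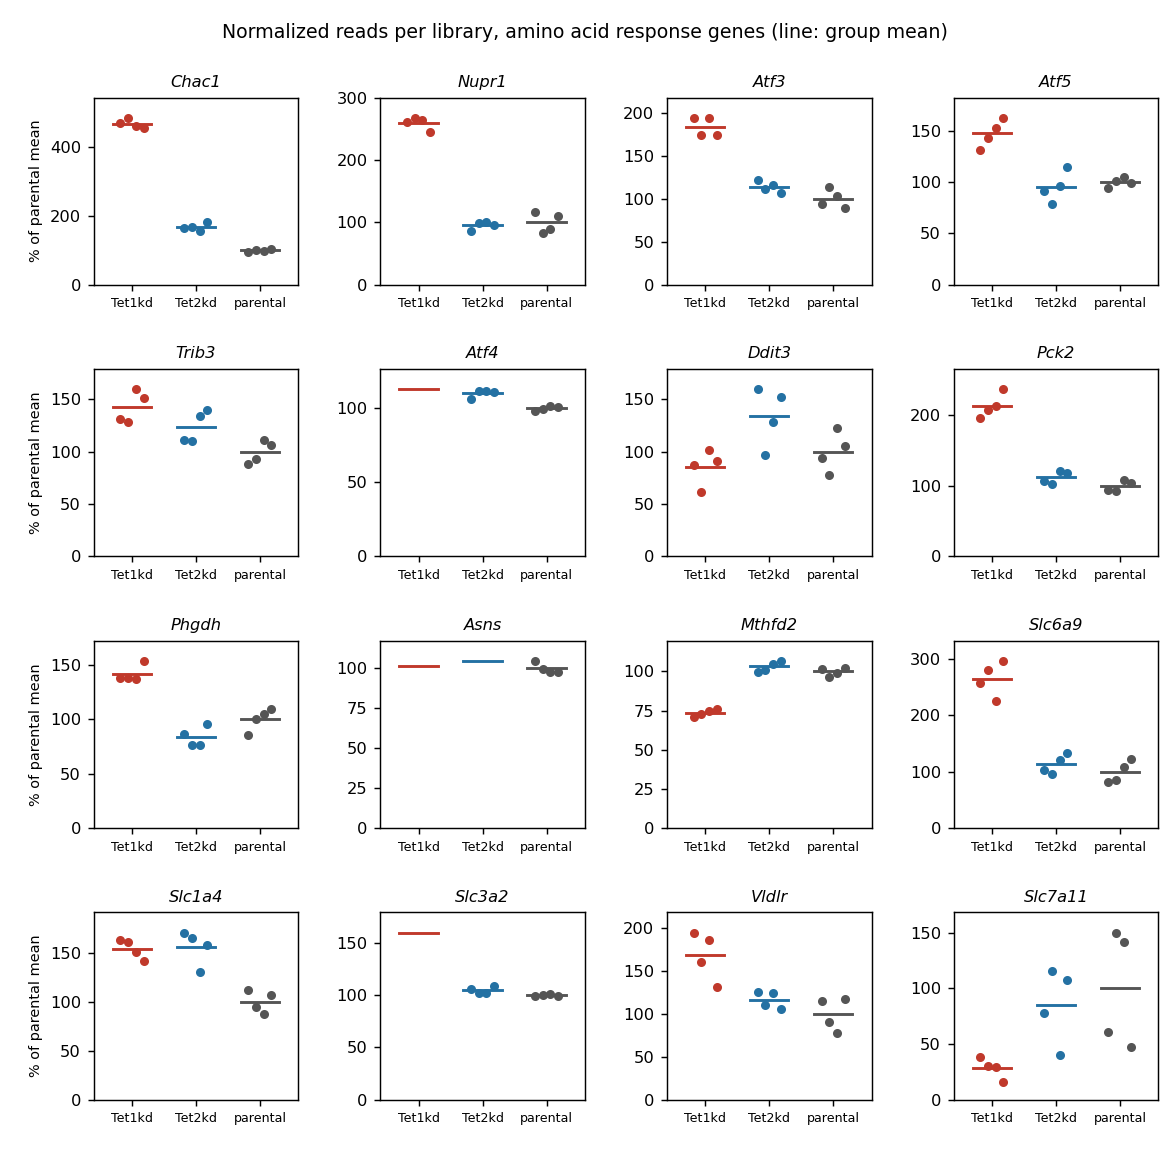
Normalized reads of 16 amino acid response genes as a percentage of the parental mean of the same gene table, with a dot for each recovered library (a to d from left to right) and a line at the group mean; parental values are those of the Tet1kd table, and a group with a line alone was not recovered per library. Chac1, Nupr1, Pck2 and Slc6a9 stand far above parental cells in Tet1kd cells, while Slc1a4 is raised in both knockdowns.

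Where library values could be recovered, the separation of the groups could be counted. In Tet1kd cells 15 of the 21 recovered amino acid response genes had all 4 libraries above all parental ones, 2 had them below and 4 overlapped, against 48.9% of all recovered genes with a mean of at least 10 that did not overlap in either direction. Of the 9 genes of the arm with the response core in the promoter 7 rose, 1 fell and 1 did neither per the authors' deposited table. Of the 13 without it 8 rose, 1 fell and 4 did neither per the authors' deposited table.

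In the ER arm the 9 chaperone and folding genes gave 0 rises and 5 falls in Tet1kd cells per the authors' deposited table, and 0 were higher at an unadjusted p under 0.05 in either of its tests. For comparison, 25.5% of all genes with a mean of at least 100 were higher and 24.2% lower. Hspa5, which encodes the abundant chaperone BiP, averaged 15701 normalized reads in Tet1kd cells, not recovered per library, and 23873 ± 394 in parental cells (SD, n = 4). Its parental libraries a to d were at 24279.6, 24139, 23580.1 and 23494, a narrow range far above the Tet1kd mean. The log2 fold change was -0.60 per the authors' deposited table (adjusted p = 3.37e-12), which left 65.8% of the parental mean. Manf, a secreted factor released under ER stress, was at 1986, 1694, 1964 and 1858 normalized reads in the Tet1kd libraries a to d and at 3123, 3049.8, 3162 and 3168 in the parental libraries. The groups were apart, with a log2 fold change of -0.74 per the authors' deposited table (adjusted p = 4.87e-15). Pdia4, a disulfide isomerase, was at 2148, 2118, 2179 and 2454 normalized reads in the Tet1kd libraries a to d and at 4703, 4150.1, 4889.7 and 4968 in the parental libraries. The Tet1kd libraries reached no more than 2454 and the parental ones no less than 4150.1, with a log2 fold change of -1.07 per the authors' deposited table (adjusted p = 1.97e-30).

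Creld2, another ER stress gene, lay at 728 to 971 normalized reads in the Tet1kd libraries and at 1010.3 to 1319 in the parental libraries, which did not overlap. Calr averaged 11097 in Tet1kd cells, not recovered per library, and 15256 ± 665 in parental cells (SD, n = 4). Creld2 had a log2 fold change of -0.49 (adjusted p = 0.00673) and Calr, the calcium-binding chaperone calreticulin, one of -0.46 (adjusted p = 1.74e-07) per the authors' deposited table. Hsp90b1, the ER member of the HSP90 family, had a log2 fold change of -0.18 that did not pass the first test per the authors' deposited table (adjusted p = 0.0869) and passed the second (adjusted p = 0.00126). The rows of Pdia4 and Hsp90b1 also held other gene models, whose reads cannot be told apart from theirs. The co-chaperones Dnajb9 and Dnajc3 had log2 fold changes of -0.08 (adjusted p = 0.941) and -0.09 (adjusted p = 0.764), and Sdf2l1, a BiP cofactor, one of 0.16 (adjusted p = 0.581) per the authors' deposited table.

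The degradation gene Herpud1 was the 1 ER gene that rose. Herpud1 was at 1161, 1325, 1199.9 and 1398 normalized reads in the Tet1kd libraries a to d and at 766, 735, 789 and 761 in the parental libraries. All Tet1kd libraries were above all parental ones, with a log2 fold change of 0.74 per the authors' deposited table (adjusted p = 3.72e-12). Of the 11 ER genes with a promoter, Herpud1 was also the 1 with a match to the amino acid response core, shown above. Forms of the ER stress element with a spacing other than 9 free bases were not searched for. The Herpud1 promoter shown above also holds attgggccacg. There ATTGG, which reads CCAAT on the other strand, stands 1 base before CCACG, and these letters were not counted as a match. The part of the core or of these letters in the rise of Herpud1 was not tested. Edem1, which marks misfolded glycoproteins for degradation, had a log2 fold change of -0.08 (adjusted p = 0.625) per the authors' deposited table. Xbp1, the transcription factor spliced by IRE1, was at 1351, 1355, 1219 and 1195 normalized reads in the Tet1kd libraries a to d and at 1382, 1241, 1079 and 1323 in the parental libraries. Those groups overlapped throughout and the log2 fold change was 0.03 per the authors' deposited table (adjusted p = 0.949). In the ER arm 1 of 9 recovered genes had Tet1kd libraries above all parental ones, 3 had them below and 5 overlapped, where 48.9% of all recovered genes did not overlap, so this count is near the background. Of the 5 genes with the ER stress element 3 fell, namely Hspa5, Calr and Creld2, and 2 did neither per the authors' deposited table. Of the 6 ER genes without a match at 9 free bases 1 rose (Herpud1), 1 fell (Pdia4) and 4 did neither per the authors' deposited table. Manf, which also fell, had no promoter to search.

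**Figure D3:**
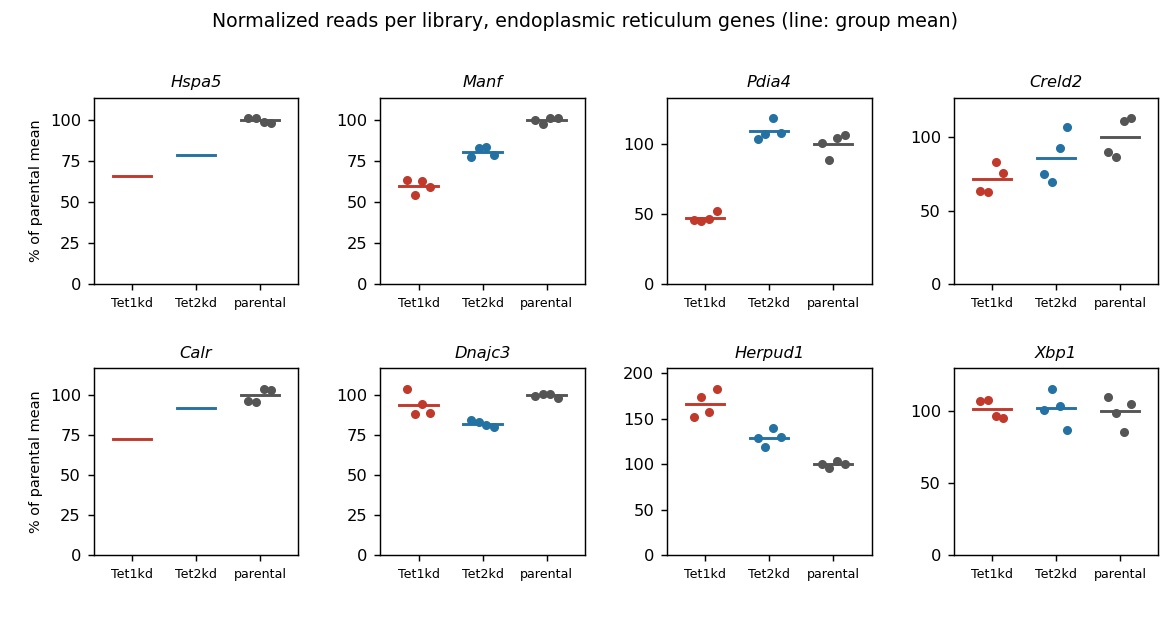
Normalized reads of 8 ER genes as a percentage of the parental mean of the same gene table, drawn as in the plot of the amino acid response genes. Hspa5, Manf, Pdia4, Creld2 and Calr lie below the parental mean in Tet1kd cells, and Herpud1 lies above it in both knockdowns.

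Markers of feeder fibroblasts, secretory cells in which ER chaperones are abundant, were lower in Tet1kd cells too. Of 10 such markers 0 were higher (0 also at an unadjusted p under 0.05) and 9 lower per the authors' deposited table. They summed to 3079 to 3388 normalized reads per library in Tet1kd cells and to 5174 to 5589 in parental cells, and no marker was at 0 in either group. Their part in the falls of Hspa5, Manf and Calr was not tested.

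Mthfd2 and Pdia4 both lie on chromosome 6 among genes that were lower in Tet1kd cells. The 50 nearest expressed genes of Mthfd2, 25 on each side, had a median log2 fold change of -0.84, with 36 called, and those of Pdia4 one of -0.60, with 31 called, per the authors' deposited table. The called counts alone do not set them apart, since Ddit4 had 37 of 50 called with a median of 0.04. The log2 fold change of Pdia4 was further below 0 than the median of its neighbours, and that of Mthfd2 was nearer to 0 than the median of its own. The part of this region in the 2 falls was not tested. Asns lies on chromosome 6 as well, near 45 genes with a median of -0.21, and for the remaining members the median lay between -0.12 and 0.25 per the authors' deposited table. Without Mthfd2 and Pdia4 the Tet1kd counts were 18 higher and 1 lower of 25 in the amino acid response arm and 1 higher and 4 lower of 11 in the ER arm.

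**Figure D4:**
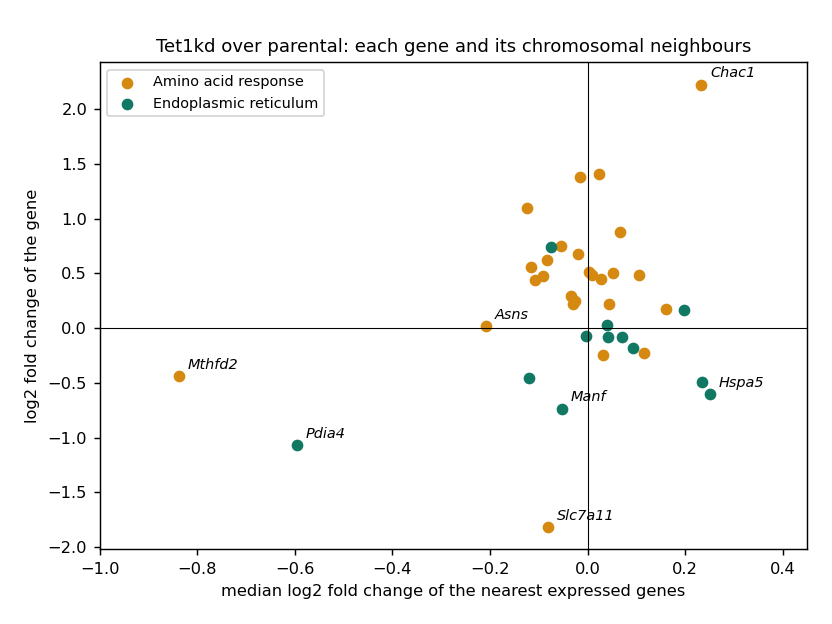
Log2 fold change of each gene in Tet1kd cells over parental cells (vertical axis) against the median log2 fold change of up to 50 nearest expressed genes on its chromosome (horizontal axis), coloured by arm. Mthfd2 and Pdia4 stand alone at the left, at -0.84 and -0.60, while Chac1, Manf and Hspa5 lie among neighbours whose medians are between -0.05 and 0.25.

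Tet2kd cells showed fewer calls, among these genes as over all genes. Of the 26 amino acid response genes 2 rose, 0 fell and 24 did neither per the authors' deposited table, where 3.85% of 22949 genes were higher and 3.29% lower (6.84% and 5.91% of the 10808 genes with a mean of at least 100). The second deposited test called 6 higher and 1 lower of the 26, and 1 was lower at an unadjusted p under 0.05 in the first. Chac1 was at 464, 466, 439.7 and 508 normalized reads in the Tet2kd libraries a to d and at 268, 286, 275 and 291 in the parental libraries. The groups were apart, with a log2 fold change of 0.75 per the authors' deposited table (adjusted p = 5.57e-08). Slc1a4 was at 965, 936, 736 and 896 normalized reads in the Tet2kd libraries a to d and at 630.4, 534, 495 and 603 in the parental libraries. These too did not overlap, although library c was the lowest in both groups, and the log2 fold change was 0.64 per the authors' deposited table (adjusted p = 1e-05). The parental libraries are the same in both comparisons, and their values differ here by the size factors of this table.

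Apart from Chac1 and Slc1a4, the amino acid response genes that rose in Tet1kd cells did not pass the first test in Tet2kd cells. Nupr1 was at 269, 308, 316 and 298 normalized reads in the Tet2kd libraries a to d and at 363, 259, 278 and 346 in the parental libraries. Slc6a9 was at 116, 108, 137 and 152 normalized reads in the Tet2kd libraries a to d and at 93.1, 97.2, 124 and 139 in the parental libraries. Atf3 was at 566, 519, 540.5 and 497 normalized reads in the Tet2kd libraries a to d and at 437, 530.2, 479 and 414 in the parental libraries. In each of these the groups overlapped, with log2 fold changes of -0.07 (adjusted p = 0.905), 0.18 (adjusted p = 0.707) and 0.19 (adjusted p = 0.381) per the authors' deposited table. Among the other risers of Tet1kd cells, the log2 fold change in Tet2kd cells was 0.17 for Pck2 (adjusted p = 0.325), 0.22 for Vldlr (adjusted p = 0.578), 0.07 for Slc3a2 (adjusted p = 0.815), -0.07 for Atf5 (adjusted p = 0.85), 0.31 for Trib3 (adjusted p = 0.153) and -0.26 for Phgdh (adjusted p = 0.389) per the authors' deposited table. Trib3 (adjusted p = 8.08e-04), Psat1 (0.00792) and Pck2 (0.0171) passed the second test per the authors' deposited table, and Trib3 also passed limma (adjusted p = 0.0483). Atf4 was at 8855, 9277, 9275 and 9226 normalized reads in the Tet2kd libraries a to d and at 8170.2, 8293, 8454 and 8394 in the parental libraries. Every Tet2kd library was above every parental one, by a small margin, and the log2 fold change of 0.14 passed the second test (adjusted p = 7.01e-05) and not the first (adjusted p = 0.388) per the authors' deposited table.

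Ddit3 was at 195, 119, 157 and 186 normalized reads in the Tet2kd libraries a to d and at 115, 95.1, 149.7 and 129 in the parental libraries. The Tet2kd range reached far above the parental one and overlapped with it, and the log2 fold change of 0.43 did not pass per the authors' deposited table (adjusted p = 0.181). Asns had a log2 fold change of 0.07 (adjusted p = 0.846) per the authors' deposited table. Slc7a1 lay at 4347 to 4592 normalized reads in the Tet2kd libraries and at 4861 to 5032 in the parental libraries, apart but close, with a log2 fold change of -0.15 (adjusted p = 0.28, second test 1.29e-04) per the authors' deposited table. The members of the arm not named so far had log2 fold changes from -0.29 for Aldh1l2 to 0.34 for Cebpb per the authors' deposited table, and the smallest adjusted p of the first test among them was 0.456. Of the 24 recovered genes of the arm 4 had all Tet2kd libraries above the parental ones (Atf4, Chac1, Slc3a2 and Slc1a4), 2 had them below (Slc7a1 and Aldh1l2) and 18 overlapped, against 23.4% of all recovered genes that did not overlap. This count of separated genes is near the background.

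In the ER arm 1 gene rose, 3 fell and 8 did neither in Tet2kd cells per the authors' deposited table. The background among genes with a mean of at least 100 was 6.84% higher and 5.91% lower, so the 1 rise of 12 genes is near it. Hspa5 averaged 17309 normalized reads in Tet2kd cells, below all parental libraries, which were at 22226, 22202, 21663 and 21595. Its log2 fold change was -0.34 per the authors' deposited table (adjusted p = 3.59e-04). Manf was at 2220.2, 2377, 2391 and 2257 normalized reads in the Tet2kd libraries a to d and at 2859, 2805, 2905 and 2912 in the parental libraries. The groups were apart, with a log2 fold change of -0.31 per the authors' deposited table (adjusted p = 0.00515). Dnajc3 was at 1007, 996, 972 and 958 normalized reads in the Tet2kd libraries a to d and at 1185, 1209, 1205 and 1174 in the parental libraries. Its libraries were close together in each group and did not overlap, with a log2 fold change of -0.28 at the edge of the threshold per the authors' deposited table (adjusted p = 0.0488).

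Herpud1 was at 906, 831, 976 and 912 normalized reads in the Tet2kd libraries a to d and at 701, 676, 725 and 699.6 in the parental libraries. All Tet2kd libraries were above all parental ones, with a log2 fold change of 0.37 per the authors' deposited table (adjusted p = 0.00541). Pdia4 was at 4446, 4610.2, 5101 and 4615 normalized reads in the Tet2kd libraries a to d and at 4305, 3817, 4492 and 4567 in the parental libraries. Xbp1 was at 1168, 1336, 1199 and 1002 normalized reads in the Tet2kd libraries a to d and at 1265, 1141, 992 and 1216 in the parental libraries. Both of these overlapped, with log2 fold changes of 0.13 (adjusted p = 0.419) and 0.03 (adjusted p = 1) per the authors' deposited table. Calr and Creld2, which fell in Tet1kd cells, had log2 fold changes of -0.12 (adjusted p = 0.489) and -0.22 (adjusted p = 0.597) in Tet2kd cells per the authors' deposited table. Hsp90b1 had -0.16 (adjusted p = 0.205), Dnajb9 0.25 (adjusted p = 0.266), Sdf2l1 0.25 (adjusted p = 0.509) and Edem1 -0.01 (adjusted p = 1) per the authors' deposited table. The second test called 2 ER genes higher and 6 lower, and passed Calr (adjusted p = 2e-04), Creld2 (0.00179), Hsp90b1 (2.85e-08) and Dnajb9 (0.00494) per the authors' deposited table. Hspa5 and Manf were thus lower, and Chac1, Slc1a4 and Herpud1 higher, in each comparison by its own test, but the 2 comparisons share their parental libraries. Of the 10 feeder markers 3 were higher, 1 lower and 6 neither in Tet2kd cells per the authors' deposited table. They summed to 5933 to 6319 normalized reads per library in Tet2kd cells and to 4736 to 5137 in parental cells, and their part in the ER results was not tested.

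The knockdowns were set against each other directly with limma on log2(recovered normalized reads + 0.5), for the 21 amino acid response genes and 9 ER genes recovered in both, a scale that understates changes of genes with few reads. In the amino acid response arm 14 genes were higher in Tet1kd cells than in Tet2kd cells, 3 were lower and 4 did neither, where 25.4% of 14575 genes were higher and 25.6% lower. The log2 difference was 1.47 for Chac1 (95% interval 1.34 to 1.61, adjusted p = 1.12e-10), 1.44 for Nupr1 (1.22 to 1.66, adjusted p = 1.64e-08) and 1.23 for Slc6a9 (0.91 to 1.54, adjusted p = 5.5e-06). Pck2 followed with 0.92, Phgdh with 0.76 and Atf3 with 0.69, and the other higher genes lay between 0.32 and 0.63 (limma). Slc7a11, Ddit3 and Mthfd2 were lower in Tet1kd cells than in Tet2kd cells, with log2 differences of -1.48 (-2.44 to -0.52, limma adjusted p = 0.0123), -0.65 (-1.05 to -0.25, adjusted p = 0.00928) and -0.49 (-0.58 to -0.40, adjusted p = 1.7e-07). In the shallower libraries alone the calls of Slc7a11 (limma adjusted p = 0.0968) and of Vldlr, one of the 14 higher genes (0.0982), were lost.

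Slc1a4, which rose in each knockdown, differed between them by -0.02 on the log2 scale, with a 95% interval of -0.22 to 0.19 (limma adjusted p = 0.901). Trib3 differed by 0.20 (-0.02 to 0.42, limma adjusted p = 0.12), which did not pass, but passed with depth class as a block (limma adjusted p = 0.00259) and in the deeper libraries (0.0499). Cebpb and Aldh1l2 did not pass. In the ER arm Herpud1 (0.36, limma adjusted p = 5.03e-04) and Dnajc3 (0.19, adjusted p = 0.0148) were higher in Tet1kd cells than in Tet2kd cells. Pdia4 (-1.20, limma adjusted p = 8.19e-10), Manf (-0.43, adjusted p = 7.85e-06) and Dnajb9 (-0.34, adjusted p = 0.0299) were lower. Over all genes fitted 25.4% were higher and 25.6% lower, so in number these ER calls are near the background. The difference in Creld2 was -0.27 (-0.55 to 0.02) and did not pass (limma adjusted p = 0.112). It passed with depth class as a block (limma adjusted p = 2.39e-04), in the deeper libraries alone (0.0476), in the shallower libraries alone (0.00302) and without Tet2kd library b (0.0377). The difference in Xbp1 had a 95% interval of -0.19 to 0.19. The call of Dnajb9 was lost when Tet1kd library c or d or Tet2kd library a or b was left out (limma adjusted p from 0.0601 to 0.106). The call of Dnajc3 was lost without Tet1kd library a (limma adjusted p = 0.0574), with centred libraries (0.0529) and in the deeper (0.0558) or shallower libraries alone (0.0606).

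**Figure D5:**
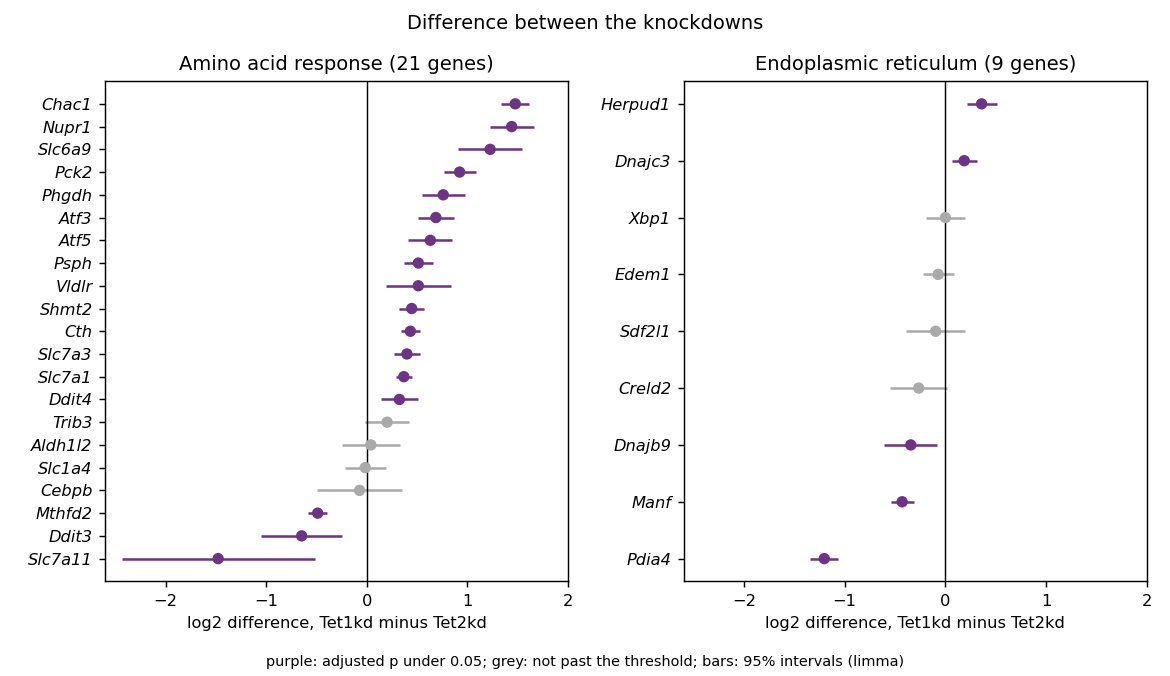
Log2 difference between Tet1kd and Tet2kd cells, with 95% intervals from limma, for the 21 amino acid response genes and 9 ER genes recovered in both; purple marks an adjusted p under 0.05. Chac1, Nupr1 and Slc6a9 stand above 1, Pdia4 and Slc7a11 below -1, and Slc1a4 and Xbp1 at about 0.

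Exon use was deposited as a separate test per exon bin, with bins numbered E001 upwards in each gene. In Tet1kd cells 23 of 484 tested bins of the 38 genes passed (4.75%), in 11 genes, where 2.56% of 195843 bins passed, per the authors' deposited table. In Tet2kd cells 24 of 474 passed (5.06%), in 13 genes, where 2.45% of 193091 bins passed per the authors' deposited table. These backgrounds hold bins of all genes and were not matched for reads per bin, on which the calls also depend. Whether the higher share is particular to the 38 genes was not tested. Only directions are given, since the scale of the deposited ratio is doubtful. The cationic amino acid carriers held bins that passed in each comparison: in Slc7a1 bin E001 was used more and bin E006 less, and in Slc7a3 bin E004 was used more and bin E018 less. Hspa5 bin E029 was used more and Calr bin E014, Hsp90b1 bin E028 and Psat1 bin E012 less in each comparison. The comparisons share the parental libraries. Slc3a2 bin E002 and Dnajc3 bin E005 were used less in Tet2kd cells, both with an adjusted p listed as 0 per the authors' deposited table.

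For the further gene lists below, the background among genes with a mean of at least 100 was 25.5% higher and 24.2% lower in Tet1kd cells. In Tet2kd cells it was 6.84% and 5.91%. Of 19 genes for sensors and regulators of these pathways 0 were higher and 7 lower in Tet1kd cells, and the median on the log2 scale was -0.22, per the authors' deposited table (second test: 1 and 11; 1 higher at an unadjusted p under 0.05 in the first test). Those with the smallest adjusted p were Eif2ak3, the PERK kinase (-0.87, adjusted p = 7.6e-15), Impact, an inhibitor of GCN2 activation (-0.68, adjusted p = 5.24e-09), Crebrf, an ER stress regulator (-0.48, adjusted p = 9.04e-06), and Eif2ak2, the PKR kinase (-0.39, adjusted p = 5.35e-04), as log2 fold changes per the authors' deposited table. Eif2ak3 also lies on chromosome 6, and its 50 nearest expressed genes had a median of -0.88 per the authors' deposited table. In Tet2kd cells 2 of the 19 were higher and 2 lower, with a median of -0.02, per the authors' deposited table (second test: 4 and 5), and Impact was among the higher ones (0.34, adjusted p = 0.00998). Ppp1r15a, named after its values were seen, encodes the subunit that reverses eIF2 alpha phosphorylation. It fell in Tet1kd cells (-0.29, adjusted p = 0.0195) and rose in Tet2kd cells (0.29, adjusted p = 0.0164) per the authors' deposited table. The log2 difference between the knockdowns was -0.59 (limma adjusted p = 1.36e-05).

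The cytosolic aminoacyl-tRNA synthetases, many of which are ATF4 targets, gave 7 of 20 higher, 5 lower and a median log2 fold change of 0.05 in Tet1kd cells per the authors' deposited table. Over all genes with a mean of at least 100 it was 25.5% higher and 24.2% lower, so these counts are near the background. Cars (0.55, adjusted p = 5.69e-10), Yars (0.50, adjusted p = 9.07e-08) and Iars (0.44, adjusted p = 3.99e-07) rose, and Gars (-0.66, adjusted p = 2.2e-14), fell per the authors' deposited table. Gars lies on chromosome 6 as well, and its 50 nearest expressed genes had a median of -1.07 per the authors' deposited table. In Tet2kd cells 0 of the 20 passed and the median was -0.07 per the authors' deposited table, with 0 higher and 4 lower at an unadjusted p under 0.05, and its second test called 1 higher and 9 lower. Of 18 further amino acid response genes 7 rose and 3 fell in Tet1kd cells, with a median of 0.06, per the authors' deposited table (second test: 7 and 7). Jdp2, a transcription repressor of the AP-1 family (2.30, adjusted p = 8.24e-35), the growth factor gene Vegfa (1.29, adjusted p = 2.71e-40), the hypoxia and stress gene Ndrg1 (1.25, adjusted p = 7.69e-07) and the hormone gene Stc2 (1.08, adjusted p = 5.1e-15) had the smallest adjusted p, as log2 fold changes per the authors' deposited table. In Tet2kd cells 0 of the 18 rose and 1, Ndrg1, fell (-0.36, adjusted p = 0.00523) per the authors' deposited table, while the second test called 6 higher and the first had 5 higher at an unadjusted p under 0.05. Nars and Tars stand in both of these lists.

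Of 27 further ER folding and degradation genes 5 rose and 11 fell in Tet1kd cells, with a median of -0.23, per the authors' deposited table. Among genes with a mean of at least 100 it was 25.5% higher and 24.2% lower. Edem2, a relative of Edem1, rose (0.80, adjusted p = 5.87e-13), and Cdk2ap2 (-0.70, adjusted p = 5.63e-08), Edem3 (-0.51, adjusted p = 2.53e-07) and the BiP co-chaperone Dnajb11 (-0.53, adjusted p = 3.08e-07) fell, as log2 fold changes per the authors' deposited table. In Tet2kd cells 1 rose, the degradation gene Derl3 (0.59, adjusted p = 0.00767), and 2 fell, Dnajb11 (-0.32, adjusted p = 0.0063) and Edem3 (-0.29, adjusted p = 0.02), per the authors' deposited table (second test: 3 and 5), where the median was -0.05.

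Some facts of the whole data set touch these results. Tet1 was lower in Tet1kd cells (-1.99) and Tet2 in Tet2kd cells (-0.97) on the log2 scale per the authors' deposited table. Tet2 rose by 0.24 in Tet1kd cells (adjusted p = 0.0186), and the value for Tet1 in Tet2kd cells was 0.22 (adjusted p = 0.104), per the authors' deposited table. Libraries held an estimated 15.8 to 39.7 M reads in Tet1kd cells, 14.4 to 31.1 M in Tet2kd cells and 14.6 to 31.6 M in parental cells. The 7 embryonic stem cell markers were all expressed, with 3 higher and 0 lower in Tet1kd cells and 1 and 0 in Tet2kd cells per the authors' deposited table (0 and 1 lower at an unadjusted p under 0.05). Of 10 primitive endoderm markers 3 were higher and 3 lower in Tet1kd cells, and 0 higher (2 at an unadjusted p under 0.05) and 2 lower in Tet2kd cells, per the authors' deposited table. The Tet1kd counts are near the background of 25.5% higher and 24.2% lower among genes with a mean of at least 100. The primitive endoderm markers summed to 11996 to 12452 normalized reads per library in Tet1kd cells and to 11631 to 12063 in parental cells. In the Tet2kd comparison their group means summed to 12148 in Tet2kd cells and 10879 in parental cells. The 9 markers recovered per library in Tet2kd cells summed to only 3428 to 3908 normalized reads. Most of the Tet2kd sum thus lay in the marker that was not recovered. The median log2 fold change of the 10 markers in Tet2kd cells was -0.28 per the authors' deposited table, so the sum does not stand for the list.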

How the data were processed

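Poly(A) RNA of 4 Tet1kd, 4 Tet2kd and 4 parental libraries was sequenced on the SOLiD platform, per the labels. For the deposited tables the submitters' processing notes name TopHat2 2.0.0, SAMtools 0.1.18, DESeq, mm9 and NCBIM37 without saying what each was used for. Per the file headers, the deposited gene tables hold group means of normalized counts (a signal and not whole counts), a fold ratio of knockdown over parental cells, its log2 value, and p-values of 2 tests with adjusted p-values. Per the file headers, the deposited exon tables hold a log2 fold and p-values per exon bin. The bins' direction was checked against the deposited means. The main result for each gene is the adjusted p-value of the first deposited test at 0.05, and edgeR was not run. The deposited values are not counts, and the whole reads recovered from them for part of the genes were compared with limma, as described next.

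Reads per library were recovered from the 15 digits of the deposited means, by finding the whole numbers of reads that give a mean under the size factors of 4 libraries; 21203 of 21658 genes with reads were recovered in Tet1kd, 21025 of 21368 in Tet2kd and 21985 of 22004 in parental libraries. The recovered genes held 70.0% of the normalized reads in Tet1kd and 72.4% in Tet2kd libraries, so abundant genes are among those missing. The recovery and the model were tested on simulated data. The knockdowns were compared with limma 3.58.1 (R 4.3.3) on log2(normalized reads + 0.5) in 1 fit over the 3 groups and genes with a mean of at least 10, with Benjamini-Hochberg adjustment. Nothing in the labels says that the 4 libraries came from separate clones or cultures beyond their description as biological replicates. The p-values thus rest on the spread between these libraries and not between clones, and limma shared that spread in part across genes. Alternatives were the second test, thresholds, pseudocounts, filters, centring, depth classes and leaving out libraries.

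The 38 genes and the further lists were chosen with earlier results of these data known. All 38 are described; of the further lists at most 4 genes with the smallest adjusted p are named. Motifs were read from RefSeq promoters of GRCm38.p6, and gene coordinates of the deposited build are not given. The other software was Python 3.11.15 with numpy 2.4.6, pandas 2.3.3, scipy 1.17.1 and matplotlib 3.10.9.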

Additional observations from a re-analysis of the deposited data

Results flagged for a closer look

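A single library stood far from the other 3 of its group in 2 of the 101 sets of 4 libraries examined over the members, where chance alone flags about 1 in 20 sets. Phgdh in Tet1kd library d was at 475 normalized reads, against 423 to 426 in the other Tet1kd libraries, a gap that made up 0.952 of the range of the group. Atf4 in Tet2kd library a was at 8855 normalized reads, against 9226 to 9277 in the other Tet2kd libraries, a gap of 0.879 of the range. Without these libraries the limma log2 fold change over parental cells was 0.46 for Phgdh in Tet1kd cells (adjusted p = 0.00244) and 0.16 for Atf4 in Tet2kd cells (adjusted p = 0.0219).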

How the results depend on the processing

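No member changed direction in a called comparison under any alternative run. The second deposited test and the stricter threshold kept the deposited log2 fold change, so direction could not change under them. Dropping the filter or using depth class as a block kept the limma log2 fold change. Psat1, Slc7a5, Slc3a2, Hspa5 and Calr were not recovered in Tet1kd cells, nor Hspa5 in Tet2kd cells, so limma did not test their direction. The counts that follow include values whose direction was fixed in this way. Over the single members, 549 of 564 values under alternatives kept their call and direction for Tet1kd against parental cells, 525 of 606 for Tet2kd against parental cells and 419 of 450 for Tet1kd against Tet2kd cells. At an adjusted p of 0.01, Slc7a1 and Slc7a11 lost their calls in Tet1kd cells and Dnajc3 in Tet2kd cells. Amino acid response genes lower in Tet1kd cells numbered 1 in place of 2 at an adjusted p of 0.01 and without Mthfd2 and Pdia4. ER genes lower in Tet1kd cells numbered 3 of 9 in place of 5 of 12 with limma, also with a pseudocount of 5, no filter, centred libraries, deeper or shallower libraries alone or depth class as a block, and 3 with the deposited test over the same 9 genes, since Hspa5 and Calr were not recovered. Exon bins fell to 13 in each knockdown at an adjusted p of 0.01.

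In Tet2kd cells, amino acid response genes that were higher numbered 6 with the second deposited test, 4 with limma, also with a pseudocount of 5, centred, deeper or shallower libraries, and 7 of 21 with depth class as a block, in place of 2. Those lower numbered 1 with the second test and with limma under the same settings or no filter, and 2 with the block, in place of 0. ER genes higher numbered 2 with the second test, 3 in the deeper libraries and 4 with the block, in place of 1, and those lower numbered 6 with the second test in place of 3. Between the knockdowns, ER genes higher numbered 1 in place of 2 with centred, deeper or shallower libraries.

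Leaving out 1 library at a time in limma gave 15 to 16 amino acid response genes higher and 2 to 2 lower in Tet1kd cells, 1 to 1 ER genes higher and 3 to 4 lower. In Tet2kd cells it gave 3 to 5 and 1 to 2 amino acid response genes, and 1 to 1 and 2 to 2 ER genes. Between the knockdowns it gave 14 to 14 and 3 to 3 amino acid response genes, and 1 to 2 and 2 to 3 ER genes. No paired analysis was possible because the deposited columns are group means and the recovered libraries carry no replicate numbers. Depth limits Slc7a11, with 3 to 18 reads in each Tet1kd library.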

Other observations

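Other stress pathways were measured beside the members. Among genes with a mean of at least 100 the background was 25.5% higher and 24.2% lower in Tet1kd cells, and 6.84% and 5.91% in Tet2kd cells. Of 9 targets of the oxidative stress factor NRF2, a list that also holds Slc7a11, 0 were higher and 7 lower in Tet1kd cells per the authors' deposited table, and 0 were higher at an unadjusted p under 0.05 or in its second test. Gclm, a subunit of the enzyme that starts glutathione synthesis (-0.62, adjusted p = 1.08e-10), Srxn1, which repairs peroxiredoxins (-0.50, adjusted p = 4.66e-06), Hmox1, heme oxygenase (-0.43, adjusted p = 1.19e-05), and Gclc, the catalytic partner of Gclm (-0.40, adjusted p = 2.21e-05), had the smallest adjusted p, as log2 fold changes per the authors' deposited table. In Tet2kd cells 0 of the 9 passed per the authors' deposited table, with 1 higher and 0 lower at an unadjusted p under 0.05, and its second test called 2 higher and 1 lower. Of 10 cytosolic heat shock genes 1 was higher and 3 lower in Tet1kd cells per the authors' deposited table (second test: 1 and 7), led by the chaperone Hsph1 (-0.48, adjusted p = 2.94e-07). By the first test the 3 lower heat shock genes are near the background share. In Tet2kd cells 0 were higher, also at an unadjusted p under 0.05, and 3 lower per the authors' deposited table (second test: 0 and 6), led by Dnajb1 (-0.43, adjusted p = 2.29e-05).

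Within each group the deeper libraries a and b and the shallower libraries c and d differed for some members in the same way. Of 30 members recovered in all 3 groups, 8 had both shallower libraries above both deeper ones in every group (Ddit4, Trib3, Psph, Shmt2, Pck2, Pdia4, Sdf2l1 and Creld2) and 3 had the opposite order in every group (Slc7a3, Dnajb9 and Edem1). Each group held both kinds of library.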
